A study of Homo sapiens with 17 samples.

Results

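Long noncoding RNAs and the host RNAs of small RNAs were followed through a TRAIL time course in a human breast cancer cell line. The members were the genes whose symbol was LINC with a number, ended in -AS with a digit, was SNHG with a number, began with MIR and ended in HG, or was MALAT1 or NEAT1, and whose mean deposited count over the 17 libraries was at least 50. Of 58870 genes in the deposited table, 3268 had such a name and 174 met the count minimum. They were 50 of 1929 LINC genes, 95 of 1249 genes named -AS, 19 of 25 SNHG genes, 8 of 63 MIR host genes, MALAT1 and NEAT1. The mean count alone chose them, so abundance is a description here, whereas differences between times were not used. Just inside the minimum were LINC01003 with a mean count of 50 and RUSC1-AS1 with 50.5, and just outside were LINC01963 with 49.9 and LINC00869 with 49.7. All 174 passed the filter on low counts, and 140 had a mean of at least 50 counts at every time, so that the rest were members partly through the times at which they were high. The names were checked against GENCODE 29 on GRCh38, where 63 members are annotated as antisense, 60 as lincRNA and 39 as processed transcripts. A single member, NCBP2-AS2, is annotated there as protein coding, while 2 are transcribed unitary and 5 transcribed unprocessed pseudogenes.

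The cells were MDA-MB-231, an established line of triple-negative breast cancer that the labels call mesenchymal and basal B. The labels name no engineered allele, and the cells grew in RPMI with 10% FBS. TRAIL, a ligand that can start apoptosis through death receptors, was given at 45 nM, a dose the labels call suboptimal because live cells were wanted. RNA was taken at 0, 1, 3, 6, 12 and 24 h, with 3 libraries at each time and 2 at 1 h, and stranded, poly(A)-selected paired-end libraries were made. Every library carries the TRAIL label and none is an untreated culture at a later time, so time with TRAIL and time in culture cannot be told apart. The labels do not say whether replicates were separate cultures, and p-values measure only the spread between these samples. In bulk RNA, fewer cells with an RNA and less of it per cell cannot be told apart.

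MALAT1 and NEAT1 are abundant nuclear RNAs: MALAT1 gathers in nuclear speckles, and the long form of NEAT1 is the scaffold of paraspeckles. Both end in a structure made without an ordinary poly(A) tail, whereas the short form of NEAT1 is polyadenylated, and poly(A) selection may therefore sample them unevenly. SNHG genes carry small nucleolar RNAs (guides for rRNA modification) in their introns, and many of their spliced RNAs are short-lived because nonsense-mediated decay removes them once ribosomes engage them. MIR host genes are transcribed as long precursors from which Drosha cuts microRNA hairpins, so that a spliced host RNA and its microRNA come from the same transcription but need not follow each other in level. Antisense RNAs are read from the strand opposite a neighbour, often from a shared or facing promoter.

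All 8 MIR host members contain at least 1 mature microRNA in RefSeq (GRCh38.p14), and 13 members together contain 32 mature sequences. The sequences below are a selection from the host RNAs whose levels are described later, with at most 1 arm of each hairpin. Those of miR-2682 in MIR137HG and miR-10526 in MIR100HG are left out. The sequences are grouped by seed, with the seed (bases 2 to 8) in capitals. The mature microRNAs themselves were not measured by these libraries. MIR222HG holds miR-221 and miR-222, which share 1 seed. LINC00472 spans 2 members of the miR-30 family with a common seed, and MIR100HG and MIR4458HG, on different chromosomes, both hold a microRNA with the let-7 seed.
hsa-miR-221-3p (MIR222HG): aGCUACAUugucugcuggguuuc
hsa-miR-222-3p (MIR222HG): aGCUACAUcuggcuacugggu
hsa-miR-30c-5p (LINC00472): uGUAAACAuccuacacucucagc
hsa-miR-30a-5p (LINC00472): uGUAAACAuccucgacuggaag
hsa-let-7a-5p (MIR100HG): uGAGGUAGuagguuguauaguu
hsa-miR-4458 (MIR4458HG): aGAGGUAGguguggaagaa
hsa-miR-125b-5p (MIR100HG): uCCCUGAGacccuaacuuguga
hsa-miR-100-5p (MIR100HG): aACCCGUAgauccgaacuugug
hsa-miR-22-3p (MIR22HG): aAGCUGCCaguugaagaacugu
hsa-miR-210-3p (MIR210HG): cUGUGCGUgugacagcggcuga
hsa-miR-137-3p (MIR137HG): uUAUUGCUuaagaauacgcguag
hsa-miR-503-5p (MIR503HG): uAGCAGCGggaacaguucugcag
hsa-miR-4435 (MIR4435-2HG): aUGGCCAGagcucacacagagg

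Promoter sequence, 250 bases before to 50 bases after the RefSeq start, was found for 135 of the 174 members, in a table of 35116 promoters. The AP-1 motif TGANTCA, on either strand, stood in 12 of the 135 (8.89%) and in 7.71% of all promoters. The core of the hypoxia response element, ACGTG on either strand, stood in 44 members (32.59%) and in 21.4% of all promoters. That core lies within the E-box CACGTG, which 10 members (7.41%) and 7.26% of all promoters held. The kappa-B consensus was found in 11 members (8.15%) and in 5.91% of all promoters, and in 2 of the 32 matched members that were higher at 3 h (6.25%). Promoters of 3 members that moved in contrasting ways are shown in RefSeq GRCh38.p14, read on the minus strand for each gene, with matches to these motifs in capitals. A match describes the letters only.
MIR22HG, chr17:1716161-1716460: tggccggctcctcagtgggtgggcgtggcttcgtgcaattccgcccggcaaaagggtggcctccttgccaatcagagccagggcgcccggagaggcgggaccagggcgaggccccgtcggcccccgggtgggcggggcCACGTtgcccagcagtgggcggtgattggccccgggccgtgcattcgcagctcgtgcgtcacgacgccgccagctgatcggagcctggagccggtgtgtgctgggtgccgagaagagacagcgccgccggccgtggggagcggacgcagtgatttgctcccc
MIR210HG, chr11:568408-568707: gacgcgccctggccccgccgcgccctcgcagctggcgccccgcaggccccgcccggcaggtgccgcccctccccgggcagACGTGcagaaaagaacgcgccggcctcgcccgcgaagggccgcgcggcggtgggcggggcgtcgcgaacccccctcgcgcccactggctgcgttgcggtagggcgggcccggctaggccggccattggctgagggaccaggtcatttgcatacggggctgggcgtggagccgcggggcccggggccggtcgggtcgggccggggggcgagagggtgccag
LINC02009, chr3:46423618-46423917: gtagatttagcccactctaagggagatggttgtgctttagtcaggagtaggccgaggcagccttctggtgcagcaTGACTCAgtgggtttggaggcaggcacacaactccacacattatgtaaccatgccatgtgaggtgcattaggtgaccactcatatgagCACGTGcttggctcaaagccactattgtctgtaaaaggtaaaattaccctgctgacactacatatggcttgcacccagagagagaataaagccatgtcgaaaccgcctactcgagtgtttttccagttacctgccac

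SNHG genes are known for starting with a tract of pyrimidines, as ribosomal protein genes do. A C followed by at least 4 pyrimidines at the RefSeq start was present in 5 of the 16 SNHG members with a promoter entry (31.25%) and in 4.07% of all promoters. Placed anywhere from 5 bases before to 10 bases after the start, it was present in 9 of the 16 (56.25%) and in 21.1% of all promoters. The first 25 bases of the 5 genes, and of SNHG17 and SNHG1, whose tracts are absent or shorter at that start, are given for comparison with the pyrimidine tract in capitals.
SNHG4: CCCTTTCCCCTCCggcctctgccgg
SNHG5: CTTTTacgtcggccttcgcgagcgt
SNHG12: CCTTTCTCCCCgccgcattcccggt
SNHG18: CTCCTCCTCCTCCTCCTCCCCgccg
SNHG19: CTTTTCggggtcgagtccgaggggg
SNHG1: CTCatttttctactgctcgtggtaa
SNHG17: agtccttcgccgtccctcgccgtcc

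Library totals ran from 13731520 to 19234924 counts, and the members took 0.325% to 0.458% of them. Levels below are CPM, the usual depth-scaled counts, here relative to library totals adjusted by TMM, a factor for differences in RNA composition. NEAT1 alone held 13.1% of the members' counts and the 10 most counted members 49.3%, while the median member had a mean count of 124. The mesenchymal markers VIM (2495 to 3724 CPM) and CD44 (1219 to 1557 CPM) were high in every library, but SPARC, on the same marker list, reached only 1.07 CPM. ESR1 and PGR stayed at or below 0.148 and 0.0622 CPM, and CDH1, an epithelial cadherin, at or below 1.01 CPM. Other epithelial and luminal markers were present, KRT19 at 298 to 488 CPM, EPCAM at 13.1 to 19.3 CPM and GATA3 at 6.97 to 12.1 CPM. Of the immune markers, PTPRC stayed at or below 0.334 CPM while CD68 stood at 57.6 to 98.3 CPM, and the part of these markers in the results was not tested. The 8 genes of an NF-kB response list were all called higher at 3 h than at 0 h, beside 9.04% of all genes. That list was written with earlier results of these data known, and no untreated later culture exists. It therefore describes the samples and cannot check the treatment. A gene is called here when its p-value from edgeR's quasi-likelihood test, adjusted by Benjamini-Hochberg over all 15365 genes tested, is below 0.05, and rose or fell is used only of called genes. The share of counts taken by mitochondrial genes moved with time as well, from 5.53% to 8.37% at 0 h, 7.65% to 9.71% at 1 h and 7.99% to 8.97% at 3 h to a range of 3.97% to 5.45% at 6 h, 5.01% to 6.8% at 12 h and 3.66% to 4.14% by 24 h, and its part in the results was not tested.

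The members were at their most abundant at 3 h and declined afterwards, with a low at 6 h, a partial return at 12 h and another low at 24 h. They took 0.382% ± 0.0227 of all counts at 0 h and 0.448% ± 0.0144 at 3 h, then 0.343% ± 0.0128 at 6 h. By 24 h the share was down to 0.327% ± 0.00199 (each SD over n = 3 libraries). The highest group mean fell at 3 h for 78 of the 174 members (44.8%, against 25.9% of all genes tested) and at 1 h for 38. The lowest fell at 24 h for 75 (43.1%, against 25.3%) and at 6 h for 57 (32.8%, against 19.3%). Over all times 118 members were called by the F-test, 67.8%, beside 64.2% of all genes, so that the number of members that moved was near the background. Against 0 h, 27 members were called only higher (15.5%, against 25.1% of all genes) and 53 only lower (30.5%, against 24.4%). A further 26 were called in both directions at different times (14.9%, against 7.29%), and 68 at no time (39.1%, against 43.2%).

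Few changes against 0 h reached 2-fold. Of all genes, 0.0651% were called with at least that fold at 1 h, 1.08% at 3 h and 1.46% at 6 h. The share was 0.586% at 12 h and reached 1.93% at 24 h. Against 0 h, no member passed that size at 1 h. Those that did were MIR210HG and RGMB-AS1 at 3 h, and MIR210HG at 6 h. ZFHX2-AS1 passed it at 12 h, and ZFHX2-AS1 and SLC25A25-AS1 at 24 h.

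**Figure D1:**
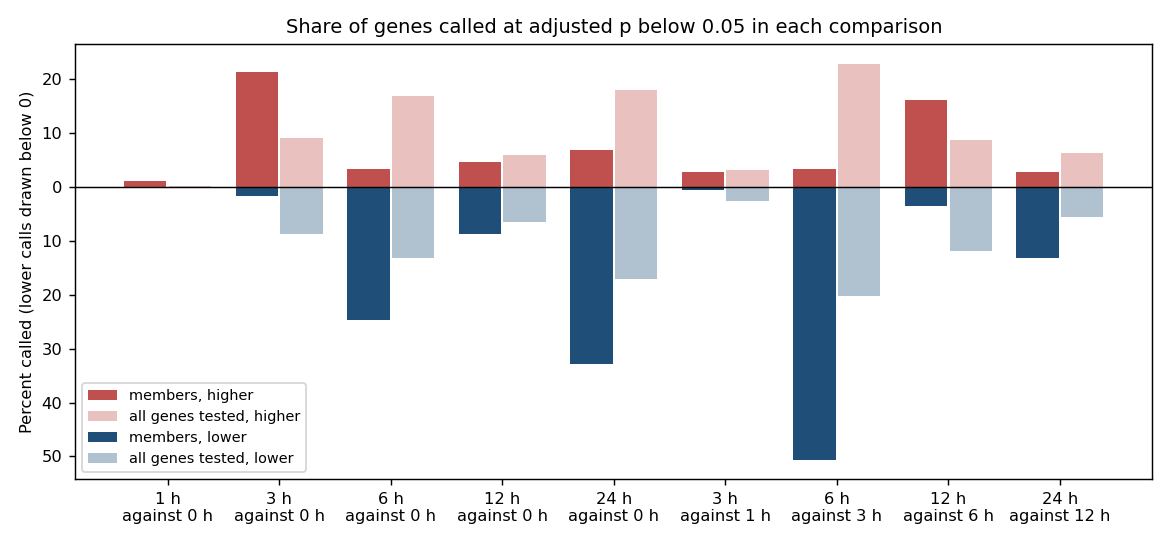
Percent of the 174 members (solid bars) and of all 15365 genes tested (pale bars) called higher (above 0) or lower (below 0) in each comparison by edgeR at an adjusted p below 0.05. At 3 h against 0 h 37 members were higher and 3 lower, and at 6 h against 3 h 6 were higher and 88 lower.

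**Figure D2:**
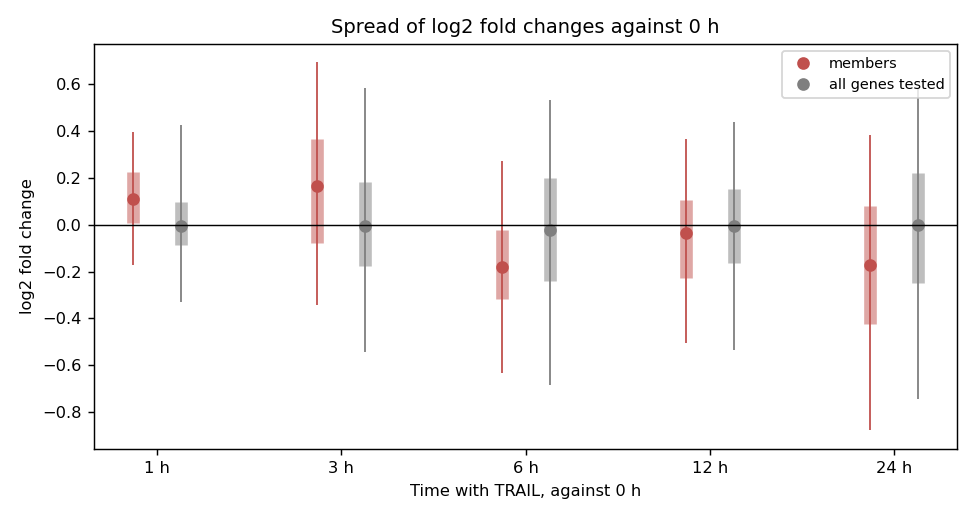
Log2 fold change against 0 h at each later time for the members and for all genes tested, with points at the median, thick bars from the 25th to the 75th percentile and thin bars from the 5th to the 95th. The members' median was 0.16 at 3 h and turned to -0.18 at 6 h, and it was -0.17 at 24 h (-0.09 with length and GC offsets), while that of all genes lay between -0.02 and 0.00.

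At 1 h, MIR222HG and LINC00472, both microRNA hosts, were the only members called, and both were higher. The 2 calls (1.15% of members) compare with 0.26% of all genes called higher, 0.0521% called lower and 0.312% called in either direction. At an unadjusted p below 0.05 there were 18 members, 10.3% beside 5.15% of all genes. The members' median log2 fold change was 0.11 against 0.00 for all genes, and it was 0.06 with library totals as the scaling, 0.07 with length and GC offsets, 0.18 without 1 h replicate 1 and 0.04 without 1 h replicate 2. Neither call was firm: MIR222HG remained called in 16 and LINC00472 in 13 of 26 alternative analyses, and leaving out 0 h replicate 2, 0 h replicate 3, 1 h replicate 2, 3 h replicate 1 or 6 h replicate 3 ended both, as did averaging replicates 2 and 3 at 6 h and 24 h. A single call was left without 1 h replicate 1, 3 h replicate 2 or 3, 6 h replicate 2, or 24 h replicate 2 or 3. Only 2 libraries represent 1 h, and the count ran from 0 to 2 when single libraries were left out.

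At 3 h most of the change was upward. Of the members, 40 were called (23%, against 17.7% of all genes), of which 37 rose (9.04% of all genes were called higher) and 3 fell (8.71% called lower), with a median log2 fold change of 0.16 beside 0.00 for all genes. Both nuclear RNAs rose, as did 10 of 19 SNHG genes, 6 of 8 MIR hosts, 13 of 95 genes named -AS and 6 of 50 LINC genes. The 3 that fell were MIR210HG, LINC00909 and LINC02009. From 1 h to 3 h 6 members were called (5.73% of all genes): LINC00641, MIR22HG, SNHG12, SNHG17 and TMEM147-AS1 rose and MIR210HG fell (3.17% and 2.56% of all genes). Those 6 calls became 2 without 1 h replicate 1, and 3 without 3 h replicate 1. With library totals as the only scaling, 28 members were higher and 7 lower, a scaling that moved the median of the members to 0.10 and that of all genes to -0.07. The 40 calls became between 19 and 44 when single libraries were left out, and the drop was over 1.5-fold without 0 h replicate 2, 0 h replicate 3, 3 h replicate 1 or 3 h replicate 2.

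At 6 h the direction had turned, and 43 members were lower than at 0 h and 6 higher, beside 13.2% and 16.9% of all genes (49 members in either direction, 28.2%, and 30.1% of all genes). The median log2 fold change was -0.18, beside -0.02 for all genes. The lower members were 23 genes named -AS, 13 LINC genes, 4 SNHG genes and 3 MIR hosts, while MALAT1 and NEAT1 were back near their level at 0 h. Set against 3 h, 88 members fell and 6 rose at 6 h (20.3% and 22.9% of all genes, 43.2% in either direction), among them 17 of 19 SNHG genes and 7 of 8 MIR hosts lower and none of either class higher. That comparison shares no library with 0 h and gave a count between 79 and 95 of 174 when any single library was left out, whereas the 49 calls against 0 h ranged from 23 to 53 and were fewest without 0 h replicate 1, 6 h replicate 2 or 6 h replicate 3.

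By 12 h the members had moved back toward their level at 0 h, with 8 higher and 15 lower (5.96% and 6.48% of all genes, 12.4% in either direction). From 6 h to 12 h 28 rose and 6 fell (8.7% and 11.9% of all genes, 20.6% in either direction), led by ADIRF-AS1, MIR210HG and LINC02009. With offsets that removed trends with transcript length and GC content, 5 members were higher and 19 lower at 12 h against 0 h. The 23 calls against 0 h dropped to as few as 8 without single libraries, and were reduced by leaving out any of the 0 h libraries or 12 h replicate 2 or 3. The 34 calls against 6 h ranged from 18 to 36 and were reduced without 6 h replicate 3.

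At 24 h 57 members were lower than at 0 h and 12 higher (17.1% and 18% of all genes, 35.1% in either direction), with a median log2 fold change of -0.17 beside 0.00. With length and GC offsets that median was -0.09, and with library totals as the only scaling it was -0.10. MALAT1, NEAT1, 12 of 19 SNHG genes, 5 of 8 MIR hosts, 27 of 95 genes named -AS and 11 of 50 LINC genes fell. The 12 that rose were 6 LINC genes, 5 genes named -AS and 1 MIR host. The fall was uneven between classes, with median log2 fold changes of -0.41 for SNHG genes and -0.38 for MIR hosts. The medians were -0.14 for genes named -AS and only -0.07 for LINC genes. Between 12 h and 24 h 23 fell and 5 rose (5.6% and 6.42% of all genes, 12% in either direction), including 7 SNHG genes lower and none higher. With library totals as the only scaling, 21 members were higher and 51 lower at 24 h against 0 h, and the median of all genes was 0.07. Without 0 h replicate 1 there were 43 calls in place of 69, and the 28 calls against 12 h ranged from 6 to 29, with fewer without 12 h replicate 1, 24 h replicate 2 or 24 h replicate 3.

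NEAT1 (chr11:65422774-65445540, plus strand) was the most counted member and followed the general course closely. At 0 h its 3 libraries gave 587, 442 and 399 CPM, and at 1 h the 2 libraries gave 524 and 647 CPM. At 3 h the values were 821, 854 and 684 CPM, and at 6 h 413, 356 and 365 CPM. At 12 h they were 606, 501 and 400 CPM, and at 24 h 278, 333 and 351 CPM. All libraries at 3 h were above all at 0 h, and all at 24 h below them, while those of 6 h and 12 h overlapped 0 h. NEAT1 rose at 3 h by a log2 fold change of 0.72 ± 0.17 (SE, adjusted p = 0.0107), a call that remained in all 26 alternatives. It fell by 1.06 on the log2 scale from 3 h to 6 h (adjusted p = 0.00036) and was lower at 24 h than at 0 h by -0.57 ± 0.17 (SE, adjusted p = 0.0191). The last call was lost without 0 h replicate 1 or 24 h replicate 1.

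MALAT1, its neighbour on the same strand (chr11:65497688-65506516), had a deeper late decline and lacked the higher mean at 12 h. The mean of MALAT1 was 160 CPM at 6 h and 134 CPM at 12 h, whereas that of NEAT1 was 378 and 502 CPM. Neither gene was called at 12 h against 6 h. The MALAT1 libraries gave 193, 121 and 134 CPM at 0 h, 184 and 219 CPM at 1 h, and 270, 238 and 218 CPM at 3 h. They gave 187, 146 and 146 CPM at 6 h, 160, 142 and 99.0 CPM at 12 h, and 67.5, 80 and 79.3 CPM at 24 h. The 3 h libraries stood above and the 24 h libraries below every library at 0 h. MALAT1 rose at 3 h by 0.70 ± 0.20 (SE, log2 fold change, adjusted p = 0.0307) and fell at 24 h by -0.99 ± 0.20 (SE, adjusted p = 0.00317), and it fell from 12 h to 24 h (-0.82, adjusted p = 0.0239). The rise at 3 h remained in 20 of 26 alternatives and was lost, among others, on leaving out 0 h replicate 2, 0 h replicate 3, 3 h replicate 1 or 3 h replicate 2, where the adjusted p reached at most 0.114. The fall at 24 h was kept in all of them.

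**Figure D3:**
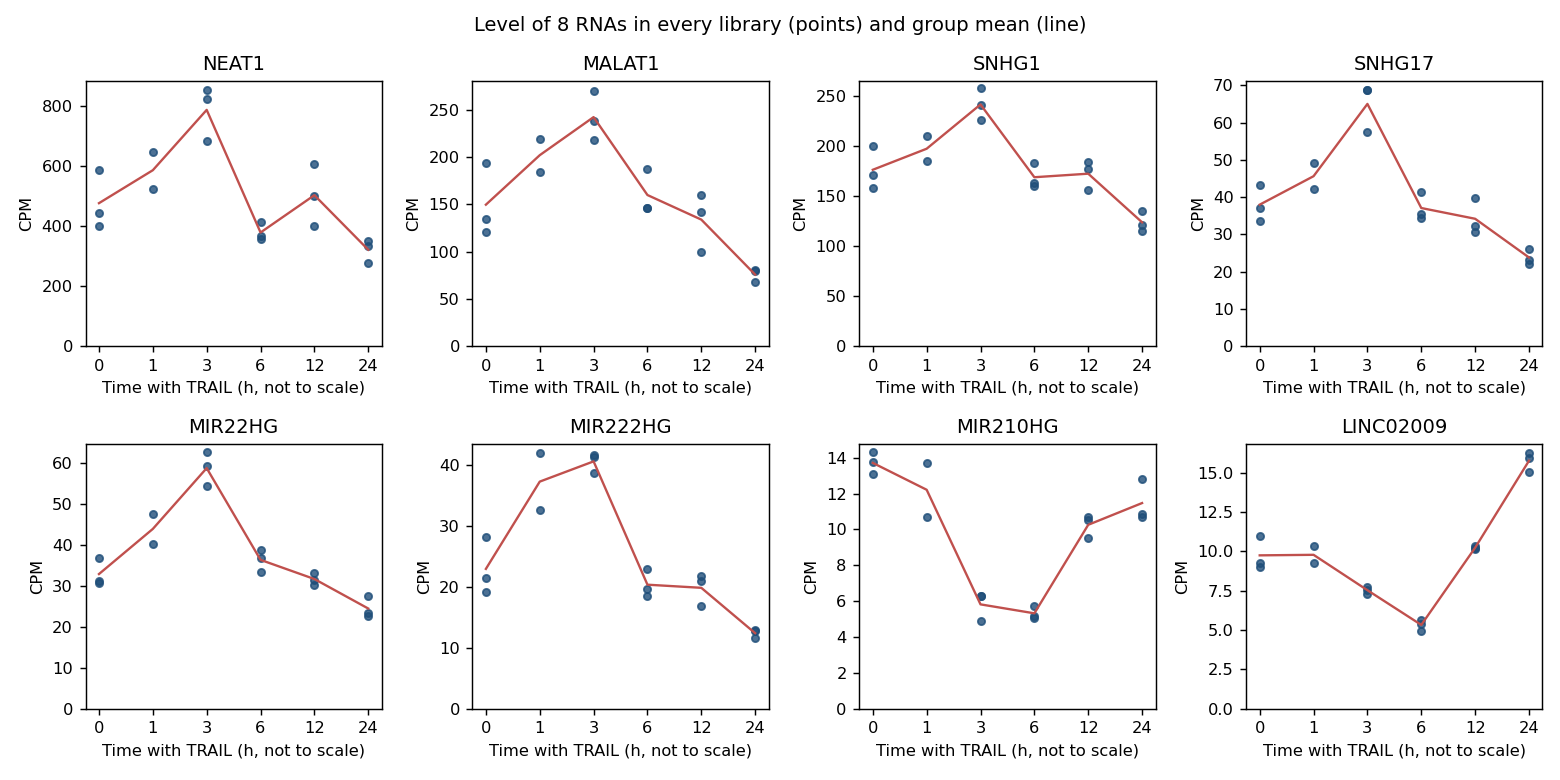
CPM of 8 members in every library (points) and the mean of each time (line), with times of 0, 1, 3, 6, 12 and 24 h evenly spaced on the horizontal axis. NEAT1, MALAT1, SNHG1, SNHG17, MIR22HG and MIR222HG have their highest mean at 3 h and their lowest at 24 h, whereas MIR210HG and LINC02009 have their lowest at 6 h.

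Paraspeckles are built from NEAT1 and RNA-binding proteins, and 15 genes for such proteins were tested beside it. At 3 h 5 were higher and none lower, among them SFPQ (log2 fold change 0.32), PSPC1 (0.24) and RBM14 (0.35), and the median of the list was 0.08. At 6 h 7 were higher and none lower. At 12 h 1 was higher and 1 lower, and at 24 h 2 were higher and 6 lower, with SFPQ at -0.30. Beside these counts, 9.04% of all genes were called higher and 8.71% lower at 3 h, and 16.9% and 13.2% at 6 h. The shares of all genes were 5.96% and 6.48% at 12 h, and 18% and 17.1% at 24 h. NONO, a core paraspeckle protein, was called at no time against 0 h, but over all times it was called by the F-test (adjusted p = 0.00769).

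The SNHG genes moved upward at 3 h and downward at 24 h, with medians of 0.29 and -0.41. SNHG17 (chr20) and SNHG1 (chr11) show the course well. SNHG17 measured 43.2, 37.2 and 33.5 CPM at 0 h, 68.8, 68.7 and 57.5 CPM at 3 h, and 26.1, 23.2 and 22.1 CPM at 24 h. These 3 groups did not overlap, and the log2 fold change was 0.78 ± 0.11 (SE, adjusted p = 0.00012) at 3 h and -0.67 ± 0.12 (SE, adjusted p = 0.0004) at 24 h. SNHG1 measured 200.1, 170.3 and 157.3 CPM at 0 h, 241, 257 and 225 CPM at 3 h, and 135, 121 and 115 CPM at 24 h, again without overlap. It was 0.45 higher at 3 h (adjusted p = 0.00236) and -0.51 at 24 h (adjusted p = 0.00052). The calls of SNHG1, SNHG12, SNHG15 and SNHG17 at 3 h and at 24 h remained in all 26 alternatives.

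SNHG29 and SNHG5 had the highest levels per length of the SNHG class, at 223 and 144 CPM per kb of their longest transcript. SNHG29 (chr17:16438822-16478678) did not take part in the peak at 3 h. It measured 416, 402 and 410.1 CPM at 0 h, 423 and 421 CPM at 1 h and 419, 416 and 412 CPM at 3 h. It then measured 378, 346 and 348 CPM at 6 h, 343, 315 and 336 CPM at 12 h, and 337, 299.9 and 287 CPM at 24 h. From 6 h onward every library lay below every library at 0 h. SNHG29 fell by -0.20 at 6 h, -0.31 at 12 h and -0.41 ± 0.06 (SE, adjusted p = 5.9e-05) at 24 h, and its counts were not whole in 17 libraries, which in such a table marks fragments divided between genes. The overlapping coding gene LRRC75A lies on the other strand.

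SNHG5 (chr6:85660950-85678748), whose start carries the pyrimidine tract shown above, measured 155, 142 and 147 CPM at 0 h and 154 and 169.6 CPM at 1 h. It measured 167, 181 and 178 CPM at 3 h and 137, 122 and 126 CPM at 6 h. It measured 164, 144 and 152 CPM at 12 h and 147, 118 and 118 CPM at 24 h. The 3 h libraries were above all at 0 h and the 6 h libraries below, and 1 of the 24 h libraries lay within the range of 0 h. Its rise at 3 h (0.24, adjusted p = 0.0383) remained in 19 and its fall at 24 h (-0.22, adjusted p = 0.0388) in 18 of 26 alternatives.

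The other SNHG genes lower at 24 h were SNHG4, SNHG6, SNHG7, SNHG8, SNHG11, SNHG12, SNHG15 and SNHG16, of which SNHG7 (-0.83) and SNHG6 (-0.71) fell most. From 6 h to 12 h 3 of 19 SNHG genes rose. SNHG19 (chr16:2154797-2155358) was the only SNHG gene called higher at 12 h than at 0 h. It measured 5.54, 4.05 and 4.36 CPM at 0 h, 6.23, 7.77 and 6.02 CPM at 3 h and 7.41, 5.87 and 6.94 CPM at 12 h. Between them, at 6 h, it measured 4.04, 2.99 and 4.53 CPM. The 1 h libraries gave 5.44 and 6.00 CPM and the 24 h libraries 4.74, 5.21 and 5.00 CPM. Both groups at 3 h and 12 h were above 0 h, at log2 fold changes of 0.52 (adjusted p = 0.0303) and 0.53 (adjusted p = 0.0311). Those calls remained in 20 and 22 of 26 alternatives.

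Small nucleolar RNAs work in particles with box C/D or box H/ACA proteins, and 10 genes for these and their assembly were set beside their RNA hosts. At 3 h 5 rose and none fell, with a list median of 0.19. At 6 h, where 4 SNHG genes fell and none rose, 3 of the list rose and 1 fell, with a median of -0.01. None rose and 2 fell at 12 h, and none rose and 7 fell at 24 h, with a median of -0.36. NOP58, a core box C/D protein, was 0.38 higher at 3 h and -0.42 at 24 h, and NOP56, its partner, 0.36 and -0.40. Of 14 genes for nonsense-mediated decay, 2 were higher at 3 h, 7 at 6 h and 1 at 12 h with none lower, while at 24 h 1 was higher and 3 were lower. UPF1, the central helicase of that pathway, was 0.38 higher at 6 h, and SMG1, its kinase, 0.58. As background to both lists, taking 3, 6, 12 and 24 h in turn, 9.04%, 16.9%, 5.96% and 18% of all genes were called higher. Genes called lower made up 8.71%, 13.2%, 6.48% and 17.1% in the same order.

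**Figure D4:**
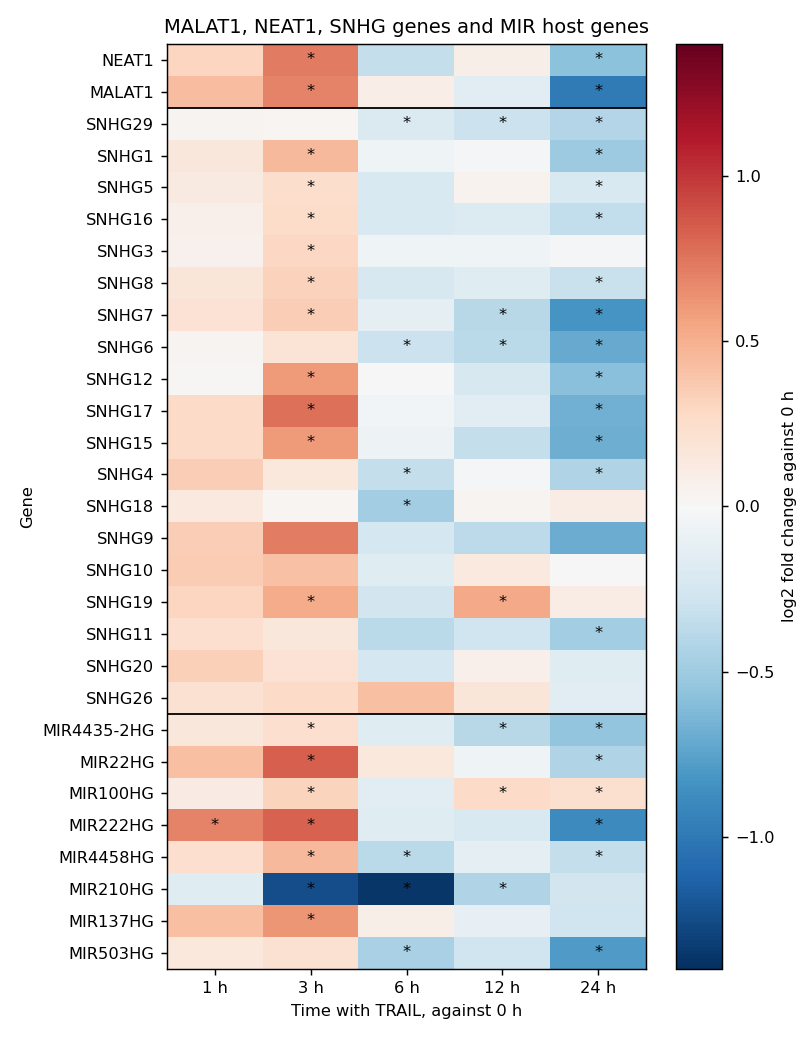
Log2 fold change against 0 h (colour) for MALAT1, NEAT1, the 19 SNHG genes and the 8 MIR host genes, with genes in rows, times in columns and a star where edgeR called the change. Most rows are red at 3 h and blue at 24 h, and MIR210HG is blue at 3 h (-1.24) and 6 h (-1.36).

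MIR22HG and MIR222HG had the sharpest early rises among the MIR hosts. MIR22HG (chr17:1711493-1717174, minus strand), host of miR-22, measured 36.8, 30.8 and 31.2 CPM at 0 h, 40.4 and 47.6 CPM at 1 h and 62.8, 59.3 and 54.4 CPM at 3 h. It measured 38.7, 37.0 and 33.6 CPM at 6 h, 33.3, 31.6 and 30.3 CPM at 12 h and 27.5, 22.7 and 23.4 CPM at 24 h. Libraries at 1 h and 3 h were above, and those at 24 h below, every library at 0 h. It rose at 3 h by 0.84 ± 0.09 (SE, adjusted p = 3.5e-06), fell from 3 h to 6 h by -0.69 (adjusted p = 2.8e-05) and was lower at 24 h by -0.42 ± 0.10 (SE, adjusted p = 0.00249). The difference at 1 h was 0.42 and was not called (adjusted p = 0.148).

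MIR222HG (chrX:45745211-45770274, minus strand), which carries the 2 microRNAs of shared seed shown above, measured 28.2, 19.2 and 21.5 CPM at 0 h. It measured 32.6 and 42.0 CPM at 1 h and 41.4, 41.7 and 38.8 CPM at 3 h, all above 0 h. It measured 22.9, 18.4 and 19.8 CPM at 6 h, 21.7, 20.9 and 16.9 CPM at 12 h and 12.7, 11.6 and 12.9 CPM at 24 h. The 24 h libraries were below all others. The log2 fold change was 0.70 ± 0.14 (SE, adjusted p = 0.0327) at 1 h, 0.82 ± 0.13 (SE, adjusted p = 0.00026) at 3 h and -0.89 ± 0.14 (SE, adjusted p = 0.00017) at 24 h, and the calls at 3 h and 24 h remained in all 26 alternatives.

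MIR210HG (chr11:565660-568457, minus strand) went the other way. Its microRNA, miR-210, is a well-known target of the hypoxia-inducible factors. MIR210HG measured 14.3, 13.1 and 13.8 CPM at 0 h and 10.7 and 13.7 CPM at 1 h. It measured 6.30, 6.29 and 4.88 CPM at 3 h and 5.75, 5.04 and 5.18 CPM at 6 h, then 10.7, 9.53 and 10.6 CPM at 12 h and 12.8, 10.7 and 10.9 CPM at 24 h. Every library from 3 h onward was below every library at 0 h. MIR210HG fell by -1.24 ± 0.13 (SE, adjusted p = 1.3e-06) at 3 h, -1.36 ± 0.12 (SE, adjusted p = 2.9e-07) at 6 h and -0.42 (adjusted p = 0.0183) at 12 h. It rose from 6 h to 12 h by 0.94 ± 0.13 (SE, adjusted p = 3.5e-05), and at 24 h the difference from 0 h was -0.26 (adjusted p = 0.0806). The calls at 3 h and 6 h remained in all 26 alternatives.

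MIR4435-2HG (chr2:111036776-111523376, minus strand) was the most abundant MIR host per length, at 41.4 CPM per kb. It measured 165, 158 and 155 CPM at 0 h, 161 and 193 CPM at 1 h, and 187, 197 and 179.6 CPM at 3 h. It measured 147, 141 and 135 CPM at 6 h, 130.3, 114 and 121 CPM at 12 h and 118, 104 and 104 CPM at 24 h. The 3 h libraries were above and all later libraries below those at 0 h. It rose at 3 h (0.24, adjusted p = 0.0251) and fell at 12 h (-0.39, adjusted p = 0.00164) and 24 h (-0.55 ± 0.07 SE, adjusted p = 2.1e-05). Its counts were not whole in 17 libraries.

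The remaining hosts were less uniform. MIR137HG rose at 3 h (0.62, adjusted p = 0.00667), MIR503HG fell at 24 h (-0.79, adjusted p = 0.0021), and MIR4458HG rose at 3 h (0.45) and fell at 6 h (-0.38) and 24 h (-0.33). MIR100HG, whose let-7a shares its seed with miR-4458, was higher at 3 h (0.31), 12 h (0.27) and 24 h (0.22), and is the only MIR host called higher at 24 h. The 12 h and 24 h calls of MIR100HG each remained in 16 of 26 alternatives, and the 24 h call of MIR4458HG in 10. Of 10 microRNA processing genes, 1 was higher at 3 h and 5 at 6 h with none lower, among them DICER1 (0.52), which cuts hairpins in the cytoplasm, and AGO2 (0.52), which holds the mature strand. At 12 h 2 were higher and none lower, and at 24 h 3 were higher and 2 lower. All genes tested were called higher in 9.04% and lower in 8.71% at 3 h, and in 16.9% and 13.2% at 6 h. The same shares were 5.96% and 6.48% at 12 h, and 18% and 17.1% at 24 h.

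LINC00472 (chr6:71344344-71420769, minus strand), which holds the miR-30 sequences above, rose early and fell at 6 h. It measured 48.3, 39.5 and 41.0 CPM at 0 h, 59.7 and 62.3 CPM at 1 h and 64.0, 59.9 and 55.6 CPM at 3 h. It measured 30.5, 30.3 and 29.6 CPM at 6 h, 37.5, 34.9 and 27.3 CPM at 12 h and 35.2, 39.8 and 39.1 CPM at 24 h. Libraries at 1 h and 3 h were above and those at 6 h and 12 h below all at 0 h. The log2 fold change was 0.51 (adjusted p = 0.0376) at 1 h, 0.48 ± 0.10 (SE, adjusted p = 0.00216) at 3 h, -0.51 ± 0.10 (SE, adjusted p = 0.001) at 6 h and -0.37 (adjusted p = 0.0178) at 12 h. From 3 h to 6 h it fell by -0.99 ± 0.10 (SE, adjusted p = 1.4e-06).

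LINC02009 (chr3:46416524-46423591, minus strand) had an opposite late course, with a trough at 6 h and its maximum at 24 h. It measured 9.02, 11.0 and 9.27 CPM at 0 h, 9.24 and 10.3 CPM at 1 h and 7.56, 7.30 and 7.74 CPM at 3 h. It measured 5.62, 4.98 and 5.40 CPM at 6 h, 10.2, 10.2 and 10.3 CPM at 12 h and 16.3, 15.9 and 15.1 CPM at 24 h. The libraries at 3 h and 6 h were below and those at 24 h above every library at 0 h. It fell by -0.37 (adjusted p = 0.0166) at 3 h and -0.87 ± 0.10 (SE, adjusted p = 9.3e-06) at 6 h, and was higher by 0.69 ± 0.09 (SE, adjusted p = 2.5e-05) at 24 h. It rose both from 6 h to 12 h (0.94) and from 12 h to 24 h (0.62, adjusted p = 0.00037). LINC00857 was also lower at 6 h (-0.70, adjusted p = 0.00015) and higher at 24 h (0.42, adjusted p = 0.0034), as was ARHGAP5-AS1 (-0.43 and 0.36).

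LINC00641 (chr14:21200079-21206900) was low at 1 h, at 3.55 and 2.53 CPM, and higher at 3 h, at 8.45, 6.83 and 6.53 CPM. At 0 h it measured 5.60, 5.17 and 4.98 CPM, at 6 h 7.84, 6.90 and 8.2 CPM, at 12 h 6.31, 6.22 and 5.50 CPM, and at 24 h 3.45, 5.39 and 5.40 CPM. The 1 h libraries lay below and the 3 h and 6 h libraries above all at 0 h. The difference at 1 h was -0.78 and was not called (adjusted p = 0.189), while LINC00641 rose from 1 h to 3 h by 1.25 ± 0.20 (SE, adjusted p = 0.00054) and was higher than at 0 h at 6 h (0.55, adjusted p = 0.0133). Its call at 3 h against 0 h (0.47, adjusted p = 0.0488) remained in 10 of 26 alternatives.

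LINC00963 (chr9:129483451-129513686) and LINC00342 (chr2:95807118-95816215) were lower late. LINC00963 measured 11.3, 10.2 and 9.09 CPM at 0 h, 6.26, 6.90 and 7.18 CPM at 6 h, 7.06, 5.52 and 6.78 CPM at 12 h and 7.96, 7.13 and 7.34 CPM at 24 h. LINC00342 measured 6.60, 5.23 and 5.17 CPM at 0 h, 3.22, 3.65 and 2.48 CPM at 6 h, 5.83, 4.16 and 2.67 CPM at 12 h and 3.45, 2.54 and 3.27 CPM at 24 h. At 1 h LINC00963 measured 10.8 and 9.93 CPM and LINC00342 5.19 and 6.93 CPM, and at 3 h they measured 8.75, 8.39 and 7.60 CPM and 8.38, 7.14 and 7.03 CPM. Every library of LINC00963 from 3 h on was below every library at 0 h, without a call at 3 h. The 3 h libraries of LINC00342 were above those at 0 h, also without a call, and its 12 h libraries overlapped 0 h and were widely spread. LINC00963 fell by -0.58, -0.66 (adjusted p = 0.00105) and -0.44 at 6, 12 and 24 h. LINC00342 fell by -0.87 at 6 h (adjusted p = 0.00708) and -0.87 at 24 h (adjusted p = 0.00579). Counts of both were not whole in 15 or more libraries.

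LINC00909 (chr18:74591774-74598508) measured 5.41, 4.73 and 5.17 CPM at 0 h and 3.04, 4.66 and 3.73 CPM at 3 h. The groups did not overlap, but the highest library at 3 h came close to the lowest at 0 h. Its fall of -0.42 (adjusted p = 0.0436) remained in only 8 of 26 alternatives. Other times overlapped 0 h, with 5.51 and 5.27 CPM at 1 h, 4.80, 4.97 and 4.48 CPM by 6 h, 5.21, 5.77 and 5.39 CPM by 12 h and 4.80, 5.14 and 4.80 CPM by 24 h. LINC00973 (chr3:98981058-98983096), the most abundant LINC gene per length at 29.8 CPM per kb, measured 27.1, 26.5 and 27.1 CPM at 0 h, 27.9 and 31.2 CPM at 1 h and 29.8, 32.0 and 35.3 CPM at 3 h. It measured 27.9, 24.9 and 21.2 CPM at 6 h, 30.6, 28.0 and 26.8 CPM at 12 h and 33.0, 28.8 and 28.7 CPM at 24 h. All libraries at 1 h, 3 h and 24 h lay above those at 0 h, but LINC00973 was called in none of the comparisons with 0 h. Over all times it was called by the F-test (adjusted p = 0.0186), and it fell from 3 h to 6 h (-0.40, adjusted p = 0.00267).

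Genes named -AS made up most of the members, and 84 of the 95 overlap the gene they are named after on the opposite strand in GENCODE 29. The strand setting of the counting was not given in the sources used here, so for overlapping pairs the exchange of counts cannot be told apart from a change. Over all classes, 72 members had fractional counts in at least 15 libraries, and the values of NUTM2B-AS1, ADIRF-AS1, FLG-AS1, TNRC6C-AS1, ZFHX2-AS1, PAXIP1-AS2, AFAP1-AS1, SLC25A25-AS1 and RCC2-AS1 below are uncertain to that extent. In 89 pairs both genes were tested. Of 24 antisense members called at 6 h within these pairs, the sense gene was called the same way in 3, the opposite way in 5 and not called in 16. Of 31 called at 24 h, the sense gene moved the same way in 8, the opposite way in 2 and was not called in 21. Of 12 called at 3 h, the sense gene moved the same way in 3 and was not called in 9. At 12 h it was not called in any of 8. Listed for 3, 6, 12 and 24 h in turn, only the sense gene was called in 14, 26, 12 and 27 pairs. In that order, 17.7%, 30.1%, 12.4% and 35.1% of all genes were called in either direction. Whether pairs moved together more often than unrelated genes was not tested.

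**Figure D5:**
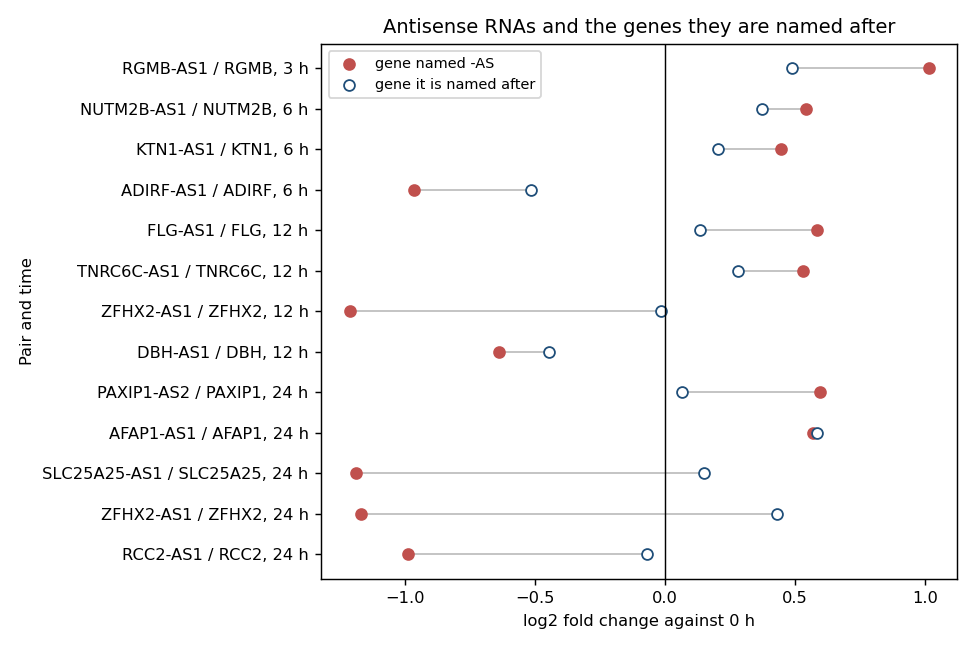
Log2 fold change against 0 h of antisense members named by the largest changes (filled) and of the gene each is named after (open), at the time given beside each pair. ZFHX2-AS1 and SLC25A25-AS1 are far from their sense genes, and AFAP1-AS1 (0.57) lies beside AFAP1 (0.59) at 24 h.

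RGMB-AS1 (chr5:98769618-98773469) and its sense gene RGMB, which encodes a co-receptor for bone morphogenetic proteins, rose together at 3 h. RGMB-AS1 measured 4.79, 3.80 and 2.80 CPM at 0 h and 8.75, 7.46 and 6.81 CPM at 3 h. The groups did not overlap, and the log2 fold change was 1.01 ± 0.21 (SE, adjusted p = 0.00253), beside 0.49 for RGMB. From 3 h to 6 h RGMB-AS1 fell by -0.68 (adjusted p = 0.00971), to 3.73, 6.04 and 4.59 CPM. Its 1 h libraries, at 4.81 and 5.20 CPM, lay just above those at 0 h, whereas 12 h (5.00, 2.96 and 3.22 CPM) and 24 h (2.87, 2.73 and 3.40 CPM) overlapped them. NUTM2B-AS1 (chr10:79663088-79826594) measured 6.78, 7.35 and 6.53 CPM at 0 h, 8.68, 9.71 and 9.18 CPM at 3 h and 9.42, 9.69 and 10.9 CPM at 6 h. It was above 0 h in every library at both times, by 0.41 (adjusted p = 0.0132) and 0.54 (adjusted p = 0.00097). It measured 8.36 and 7.60 CPM at 1 h and 8.98, 7.78 and 7.55 CPM at 12 h, also above 0 h but not called, and 7.32, 7.31 and 8.01 CPM at 24 h, which overlapped it.

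At 6 h KTN1-AS1 (chr14:55499278-55580110) was higher and ADIRF-AS1 (chr10:86965345-86971311) lower. KTN1-AS1 measured 5.10, 4.30 and 4.05 CPM at 0 h and 6.83, 5.51 and 5.99 CPM at 6 h, without overlap, a log2 fold change of 0.45 (adjusted p = 0.0172). Over all times KTN1-AS1 was not called by the F-test (adjusted p = 0.103), and its 1 h libraries also lay above all at 0 h. At the other times KTN1-AS1 was not called, with 5.63 and 5.73 CPM at 1 h, 4.75, 4.89 and 6.02 CPM by 3 h, 5.28, 4.92 and 5.44 CPM by 12 h and 5.50, 5.70 and 4.80 CPM by 24 h. ADIRF-AS1 measured 6.04, 5.05 and 5.29 CPM at 0 h, 3.03, 2.79 and 2.59 CPM at 6 h and 8.16, 6.67 and 4.50 CPM at 12 h. The remaining values were 4.49 and 6.53 CPM at 1 h, 7.42, 5.90 and 5.23 CPM by 3 h and 4.39, 6.2 and 5.61 CPM by 24 h. Only the 6 h libraries stood apart from 0 h. ADIRF-AS1 fell at 6 h by -0.96 ± 0.22 (SE, adjusted p = 0.00311) and rose from 6 h to 12 h by 1.19 (adjusted p = 0.00064), and its sense gene ADIRF was -0.51 at 6 h.

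ZFHX2-AS1 (chr14:23511760-23560778), DBH-AS1 (chr9:133654586-133657313) and SLC25A25-AS1 (chr9:128108581-128118693) declined late. ZFHX2-AS1 measured 4.92, 5.05 and 5.29 CPM at 0 h, 3.86, 2.85 and 3.13 CPM at 6 h, 2.26, 1.96 and 2.39 CPM at 12 h and 2.58, 1.61 and 2.60 CPM at 24 h, always below 0 h. Before that it measured 4.37 and 4.60 CPM at 1 h and 4.30, 3.81 and 5.38 CPM by 3 h. ZFHX2-AS1 fell by -0.63 at 6 h, -1.21 ± 0.18 (SE, adjusted p = 0.00026) at 12 h and -1.17 ± 0.18 (SE, adjusted p = 0.00013) at 24 h, while ZFHX2 was called at none of these times. Besides ZFHX2 on the other strand, ZFHX2-AS1 overlaps THTPA on its own strand.

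DBH-AS1 measured 6.84, 7.10 and 6.29 CPM at 0 h, 4.30, 4.78 and 3.89 CPM at 6 h, 4.59, 4.16 and 4.28 CPM at 12 h and 3.92, 3.66 and 4.47 CPM at 24 h. The later groups were all below 0 h and close to each other, at -0.65, -0.64 and -0.75 (adjusted p = 0.00061 at 24 h). Its 1 h and 3 h libraries, at 7.98 and 7.13 CPM and 8.23, 7.46 and 5.74 CPM, were not lower as a group. SLC25A25-AS1 measured 7.96, 5.67 and 5.04 CPM at 0 h, 6.03, 4.01 and 2.89 CPM at 12 h and 3.10, 2.73 and 2.34 CPM at 24 h. Its earlier values were 7.34 and 8.53 CPM at 1 h, 7.64, 8.85 and 8.25 CPM by 3 h and 7.39, 6.70 and 5.29 CPM by 6 h. Only 24 h was clear of 0 h, at -1.19 ± 0.23 (SE, adjusted p = 0.00094), and SLC25A25 itself was not called (0.15). RCC2-AS1 (chr1:17406760-17407382) measured 7.96, 6.67 and 4.92 CPM at 0 h and 4.39, 3.35 and 2.00 CPM at 24 h. The groups did not overlap but each was widely spread, and the fall of -0.99 ± 0.35 (SE, adjusted p = 0.0414) remained in 17 of 26 alternatives. RCC2-AS1 was highest at 3 h, at 12.9, 13.2 and 10.8 CPM against 7.41 and 10.00 CPM at 1 h, without a call against 0 h (0.91, adjusted p = 0.0515). It fell to 6.13, 5.04 and 3.62 CPM by 6 h (-1.33 against 3 h, adjusted p = 0.00378) and measured 7.68, 2.81 and 6.50 CPM by 12 h.

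Late rises were seen for AFAP1-AS1, PAXIP1-AS2, FLG-AS1 and TNRC6C-AS1. AFAP1-AS1 (chr4:7754090-7778928) measured 20.9, 22.2 and 23.0 CPM at 0 h, 25.2, 27.5 and 28.8 CPM at 6 h, 25.7, 26.0 and 26.4 CPM at 12 h and 28.6, 35.2 and 34.4 CPM at 24 h, each group above 0 h. Earlier it measured 21.6 and 20.1 CPM at 1 h and 23.9, 25 and 23.4 CPM by 3 h. It rose at 24 h by 0.57 ± 0.08 (SE, adjusted p = 6.1e-05) beside AFAP1, an actin-binding protein gene, at 0.59. PAXIP1-AS2 (chr7:154928485-154952188) measured 4.98, 4.42 and 4.11 CPM at 0 h, 5.90, 6.92 and 5.83 CPM at 12 h and 7.08, 6.32 and 7.01 CPM at 24 h. Both later groups were above 0 h, by 0.47 (adjusted p = 0.0204) and 0.59 (adjusted p = 0.00159), and PAXIP1 was called at neither time. The earlier values of PAXIP1-AS2 were 5.38 and 4.53 CPM at 1 h, 3.86, 4.35 and 4.09 CPM by 3 h and 4.74, 4.44 and 3.94 CPM by 6 h.

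FLG-AS1 (chr1:152168125-152445456) measured 3.61, 3.55 and 3.80 CPM at 0 h, 7.06, 5.72 and 3.78 CPM at 12 h and 5.15, 6.01 and 4.74 CPM at 24 h. Its earlier values were 3.67 and 5.00 CPM at 1 h, 4.52, 4.19 and 3.94 CPM by 3 h and 3.85, 3.32 and 3.02 CPM by 6 h. At 12 h 1 library lay within the range of 0 h, and the call (0.58, adjusted p = 0.046) remained in 10 of 26 alternatives, while that at 24 h (0.54, adjusted p = 0.0325) remained in 19. TNRC6C-AS1 (chr17:78107398-78111799) measured 4.36, 3.80 and 3.67 CPM at 0 h, 5.42, 6.12 and 5.50 CPM at 12 h and 4.27, 3.90 and 4.14 CPM at 24 h. In between, TNRC6C-AS1 measured 4.43 and 3.87 CPM at 1 h, 3.41, 4.19 and 3.15 CPM by 3 h and 3.54, 4.71 and 3.78 CPM by 6 h. It stood above 0 h only at 12 h (0.53, adjusted p = 0.0185) and fell again by 24 h (-0.47 against 12 h, adjusted p = 0.0346).

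The most abundant antisense members per length, FGD5-AS1 (31.5 CPM per kb) and ZBED5-AS1 (30.6 CPM per kb), moved little. FGD5-AS1 (chr3:14920347-14948424) measured 111, 118 and 127 CPM at 0 h, 105, 92.4 and 111 CPM at 3 h, 120.1, 138 and 128 CPM at 6 h and 121, 135 and 136 CPM at 24 h. It gave 119.7 and 106 CPM at 1 h and 114, 127 and 118 CPM by 12 h. Its groups overlapped 0 h, it was called at no time against 0 h and it rose from 3 h to 6 h (0.32, adjusted p = 0.00276), when most members fell. ZBED5-AS1 (chr11:10858259-10906802) measured 35.7, 34.3 and 34.5 CPM at 0 h, 28.4, 26.1 and 27.8 CPM at 6 h and 31.3, 26.4 and 27.8 CPM at 24 h. At 1 h it gave 36.1 and 40.1 CPM, with 35.4, 38.7 and 38.4 CPM by 3 h and 31.5, 31.7 and 33.2 CPM by 12 h. ZBED5-AS1 was below 0 h in each library at 6 h and 24 h, by -0.34 (adjusted p = 0.00222) and -0.29 (adjusted p = 0.00571).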

How the data were processed

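RNA of 17 libraries of MDA-MB-231 cells was sequenced, and the authors deposited 1 table of expected counts, that is, estimated fragments per gene that need not be whole, made with RSEM per the file name. Per the submitters' processing notes, cutadapt 1.18, STAR 2.7.0f and hg38 were used. The annotation and the strand setting of the counting are not given in the sources used here. Of the deposited values, 10.84% were not whole. Of 58870 genes, 58597 matched GENCODE 29 by Ensembl ID without version, which gave positions and lengths.

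Expected counts were rounded, filtered by filterByExpr and scaled by TMM (factors 0.939 to 1.06) in edgeR 4.0.16 (R 4.3.3). Totals of 13731520 to 19234924 counts and a biological coefficient of variation of 7.06% set the precision. A robust quasi-likelihood model, with time as the only factor, was fitted to all 17 libraries, and p-values were Benjamini-Hochberg adjusted over 15365 genes. Times were compared with 0 h, with the time before and together. The 5 comparisons with 0 h share the same 0 h libraries. Alternatives were RLE scaling, library totals, no filter, DESeq2 1.42.0, only the groups compared, a replicate block, averaging of the closest replicates at 6 h and 24 h, length and GC offsets (also with the block), other count minimums and each library left out.

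Values in every library are given for MALAT1, NEAT1, up to 3 members called highest and lowest at each time against 0 h, and the 2 most abundant per length of each class. SNHG1 and SNHG17, given at 0, 3 and 24 h, were shown after their values were seen. The members and lists were chosen with earlier results of these data known.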

Additional observations from a re-analysis of the deposited data

How the results depend on the processing

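In the alternatives that kept every library, none of the members named had a called change that turned its direction, and the number of members called stayed within 1.5-fold of the main count except as follows. At 1 h against 0 h, where 2 members were called, there was 1 with library totals as the scaling, 7 without the filter, 1 with only the groups compared, 1 with the replicate block and 0 with replicates 2 and 3 averaged at 6 h and 24 h. That averaging, tried because these were the replicates closest to each other, gave 23 in place of 49 at 6 h against 0 h, 21 in place of 34 at 12 h against 6 h and 6 in place of 28 at 24 h against 12 h. The averaging leaves fewer samples in 2 groups. The difference between replicates 2 and 3, as a chi-square per gene, was 1.55 at 6 h and 1.68 at 24 h. Other pairs of libraries of the same time ranged from 3.86 to 14.6. Whether these replicates were separate cultures is not stated, and the p-values treat all libraries as independent. At 3 h against 1 h, with 6 calls, there were 14 without the filter and 16 with length and GC offsets and the replicate block together. For the other changes the cause was not tested. When single libraries were left out, the counts ranged from 109 to 123 over all times, 0 to 2 at 1 h, 19 to 44 at 3 h, 23 to 53 at 6 h, 8 to 26 at 12 h and 43 to 70 at 24 h. Between neighbouring times they ranged from 2 to 8 (3 h against 1 h), 79 to 95 (6 h against 3 h), 18 to 36 (12 h against 6 h) and 6 to 29 (24 h against 12 h). Length and GC offsets moved the median log2 fold change of the members from -0.17 to -0.09 at 24 h and from -0.39 to -0.27 at 6 h against 3 h.

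No clear pairing of the samples by replicate number was seen. Deviations from the group means of same-numbered libraries correlated at a median r of 0.08 over 40 pairs (range -0.56 to 0.60). For 80 pairs with different numbers the median was -0.03 (range -0.48 to 0.53), and 8 of 17 libraries correlated best with their own number. Deviations of the few libraries of a time depend on each other, so this check cannot exclude a shared replicate batch. With the replicate number as a block, 118 members were called over all times. Against 0 h there were 42 at 3 h and 49 at 6 h, then 25 at 12 h and 69 at 24 h. A minimum mean count of 20 would have given 303 members and one of 100 would have given 104. Members near the count minimum rest on fewer counts than NEAT1 or SNHG29, and small differences there were not detectable at this depth.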

Other observations

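Long noncoding RNAs whose names the rule leaves out were also tested, 18 of 20 on a list, as HOTAIR and MEG3 had too few counts. At 3 h 5 were higher and none lower, and at 6 h 4 were higher and 1 lower. There were 3 higher and 1 lower at 12 h, and 4 higher and 3 lower by 24 h. Among all genes, 9.04% were called higher and 8.71% lower at 3 h, and 16.9% and 13.2% at 6 h. Those shares were 5.96% and 6.48% at 12 h, and 18% and 17.1% at 24 h. GAS5 and ZFAS1, which host small nucleolar RNAs but are not named SNHG, were 0.29 and 0.26 higher (log2 fold change) at 3 h and lower at 24 h, at -0.55 and -0.50. CYTOR was 0.47 at 3 h and -0.56 at 24 h. NORAD, a cytoplasmic RNA that binds Pumilio proteins, was higher at 6 h (0.31) and 24 h (0.54), and UCA1 was higher at 3 h (0.33), 12 h (0.47) and 24 h (0.43). TUG1 was higher at 3 h, 6 h, 12 h and 24 h, at 0.26, 0.28, 0.23 and 0.19.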
